A study of Chlorocebus sabaeus with 3 samples.

Results

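The immediate early genes studied here are 10 genes of cell-free RNA in vervet monkey (Chlorocebus sabaeus) amniotic fluid: FOS, FOSB, JUN, JUNB, EGR1, ATF3, IER2, IER3, DUSP1 and ZFP36. They were found by their symbols in the gene column of the deposited tables, and all 10 were present among the 33994 rows. The fluid had been cleared of cells, and its RNA was extracted, amplified by single-primer isothermal amplification and sequenced. The status labels give 1 library each to a stillborn pregnancy (sex label M), a spontaneous abortion (sex label NA) and an alive outcome (sex label F), and the labels record no treatment, genotype or gestational age for any of them. With 1 library per status, a ratio between libraries compares those libraries and not the outcomes, and no p-value is given for it.

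Immediate early genes are transcribed within minutes of a signal, from factors already present in the cell and without new protein synthesis. Growth factors, stress and cell injury act on them through the ERK, JNK and p38 MAP kinases and through serum response factor (SRF), its partners of the ELK family and CREB. Their mRNAs are short-lived, and part of the response switches itself off: DUSP1 removes phosphate from p38 and JNK, ZFP36 directs AU-rich mRNAs to decay, and ATF3 can repress its target genes. FOS and JUN family proteins pair as the transcription factor AP-1, a regulator of epithelial growth, wound repair and inflammation.

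The tables hold RPKM, which are reads scaled to gene length and library size. The length used for each gene was not given, and levels, ranks and shares compared between genes depend on it. Where 3 values follow each other without names, their order is stillborn, spontaneous abortion, alive. Library totals solved from the values were 17749954, 29926352 and 20220899 reads. The read numbers given for a gene are the smallest whole numbers that its RPKM values allow, and a factor common to all 3 libraries would not be seen. The epithelial markers EPCAM, CDH1, KRT8, KRT18, KRT19 and CLDN4 were all at RPKM 1 or above in every library. Of 6 lymphocyte markers, 5, 6 and 4 were listed at 0, and no endothelial marker reached RPKM 1.

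Most of the summed level came from 4 of the 10 genes. FOS, JUN, DUSP1 and ZFP36 together held RPKM 182 of a summed 203, 231 of 259.6 and 156 of 178. The remaining members lay between RPKM 0.676 and 16.2, and ATF3, the highest of them, came near DUSP1 in the alive library, at 8.72 against 11.2. Of the summed RPKM of all genes, the 10 took 0.0467%, 0.0682% and 0.0447%. The read numbers behind single values ran from 11, for JUNB in the stillborn library, to 7338, for JUN in the spontaneous abortion library.

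**Figure D1:**
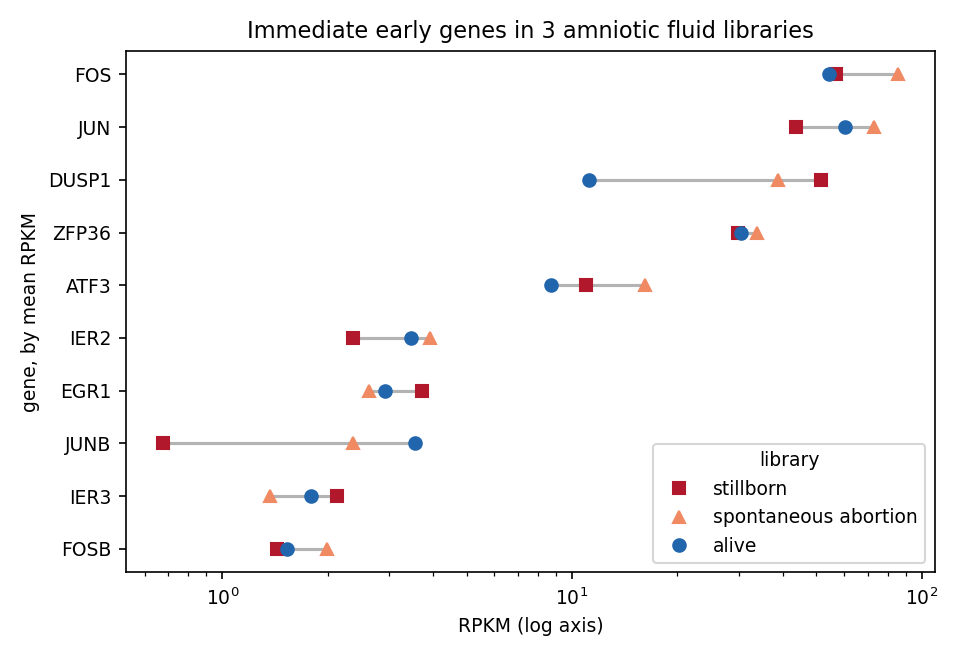
RPKM (log axis) of the 10 immediate early genes in the stillborn (square), spontaneous abortion (triangle) and alive (circle) libraries, 1 point per library, with genes ordered by mean RPKM. DUSP1 runs from 11.2 in the alive to 51.4 in the stillborn library and JUNB from 0.676 in the stillborn to 3.56 in the alive library, while the other genes span less than a factor of 2.

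FOS, the partner of JUN in the classical AP-1 dimer, stood at RPKM 57.0, 85.5 and 54.2. It ranked 743rd, 496th and 837th among all genes of those libraries. The spontaneous abortion library was the highest and the other two lay close together.

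JUN, the subunit that can also pair with itself, was at RPKM 43.8, 73.1 and 60.4 in the same order. The stillborn library was here the lowest of the 3. Within a library, the ratio of FOS to JUN per length was 1.30, 1.17 and 0.897, so that FOS was above JUN in both losses and below it in the alive library.

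FOSB, a FOS relative with a similar dimerisation domain, was at RPKM 1.43, 1.99 and 1.53. FOS exceeded it 39.9-fold, 42.9-fold and 35.5-fold per length. These folds depend on the gene lengths behind the RPKM, which were at least 1073 bases for FOS and 9258 for FOSB. JUNB, a JUN family member that can restrain JUN activity, was at RPKM 0.676, 2.37 and 3.56. JUNB was thereby the lowest of the 10 genes in the stillborn library and the sixth in the alive library. JUN exceeded JUNB 64.7-fold, 30.9-fold and 17.0-fold per length.

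EGR1, a zinc finger factor that binds GC-rich promoters, was at RPKM 3.73, 2.63 and 2.93, highest in the stillborn library. ATF3, a stress-responsive factor of the ATF and CREB family, was at 11.0, 16.2 and 8.72, and the alive library was the lowest. IER2, a nuclear protein of the early growth response, stood at RPKM 2.37, 3.93 and 3.47, with the stillborn library below the other two. IER3, a regulator of cell survival and ERK signalling, stood at 2.13, 1.37 and 1.79, and rested on 45 to 51 reads per library.

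DUSP1, the nuclear phosphatase of p38 and JNK, was at RPKM 51.4, 38.7 and 11.2. It ranked 817th, 1076th and 3275th among all genes. Both losses lay above the alive library. Among the 10 members DUSP1 was the second, the third and the fourth most abundant, and it made up 25.3%, 14.9% and 6.27% of their summed RPKM.

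ZFP36, the founding protein of the tristetraprolin family, was the steadiest member, at RPKM 29.8, 33.8 and 30.5. DUSP1 stood at 1.73, 1.15 and 0.367 times ZFP36 per length. Without DUSP1, the summed RPKM of the other 9 genes was 152, 221 and 167. On RPKM before scaling between libraries, the stillborn library thus passed the alive one in the sum of all 10 only with DUSP1 included. After the scaling used for the ratios below, the stillborn library was slightly above the alive one without DUSP1 as well.

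Ratios between libraries were taken after TMM scaling (trimmed mean of M-values), with factors of 0.937, 1.02 and 1.05. A gene was called higher or lower at a ratio of 2-fold or more, given 30 or more reads in the higher library and a 95% interval (Clopper-Pearson, exact) that left out 1. These intervals cover counting error only, since each status has 1 library. The reads carry no molecular identifiers, so copies made by amplification could make the intervals too narrow. All 10 genes had enough reads in every comparison.

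Between the stillborn and the alive library, DUSP1 was 5.14-fold higher (95% interval 4.64 to 5.70), with at least 1868 against 463 reads. JUNB was 4.71-fold lower (2.47 to 9.90) in the stillborn library, with 11 against 66 reads. These 2 of 10 genes were called, 1 in each direction, beside 25.6% of all 13452 genes with enough reads, so the share called among the 10 was not above the background. Of all those genes, 3.65% had a ratio at least as high as DUSP1, and 2.47% one at least as low as JUNB. At limits of 1.5-fold and of 4-fold the same 2 members were called, beside 46.3% (22.8% higher and 23.5% lower) and 7.92% of all genes.

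The other members stayed within 1.5-fold in this pair. EGR1 was 1.42-fold higher (1.17 to 1.74) in the stillborn library, ATF3 1.41-fold (1.23 to 1.61) and FOS 1.18-fold (1.08 to 1.28). JUN, at a ratio of 0.809 (0.770 to 0.850), and IER2, at 0.764 (0.617 to 0.943), were lower. For ZFP36 (1.09, 0.999 to 1.19), FOSB (1.05, 0.877 to 1.25) and IER3 (1.33, 0.865 to 2.05) the interval held 1. The median log2 ratio of the 10, on the scale log2(RPKM + 0.1) after scaling, was 0.18, beside -0.01 over the 10229 genes whose mean RPKM reached 1. Their standard deviation across genes was 1.09 log2 units, beside 0.93 over all those genes.

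On the scale of total assigned reads, FOSB and ZFP36 turned below 1, to 0.936 and 0.976, while DUSP1 stayed 4.60-fold higher and JUNB 5.27-fold lower. That scale moved the median log2 ratio of all genes from -0.02 to -0.18. It also moved the share of called genes that were higher in the stillborn library from 51.1% to 40.1%.

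Between the spontaneous abortion and the alive library, DUSP1 was 3.56-fold higher (3.22 to 3.94), with 2372 against 463 reads. It was the 1 member called, beside 13.4% of all 13806 genes with enough reads, and 2.64% of those had a ratio as high. ATF3 was 1.91-fold higher (1.70 to 2.14) and FOS 1.62-fold higher (1.51 to 1.74), both under the 2-fold limit. FOSB was 1.34-fold higher (1.16 to 1.55), JUN 1.24-fold (1.20 to 1.29) and ZFP36 1.14-fold (1.06 to 1.23).

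JUNB was 1.46-fold lower in the spontaneous abortion library (1.02 to 2.09). For EGR1 (0.924, 0.764 to 1.12), IER2 (1.17, 0.991 to 1.37) and IER3 (0.787, 0.517 to 1.20) the interval held 1. The median log2 ratio of the 10 was 0.26, beside -0.01 over all genes. At a limit of 1.5-fold, FOS and ATF3 joined DUSP1 among the called genes, beside 28.5% of all genes, and at 4-fold none of the 10 was called, beside 3.8%. This comparison shares the alive library with the first one, so the high ratio of DUSP1 in both rests in part on the same 463 reads. Genes with a recovered length under 1500 bases, which is a lower bound and here takes in FOS, JUNB and IER3, had a median log2 ratio of -0.16 in this pair, 0.06 in stillborn over alive and 0.19 in stillborn over spontaneous abortion, and the part of transcript length in the members' ratios was not tested.

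**Figure D2:**
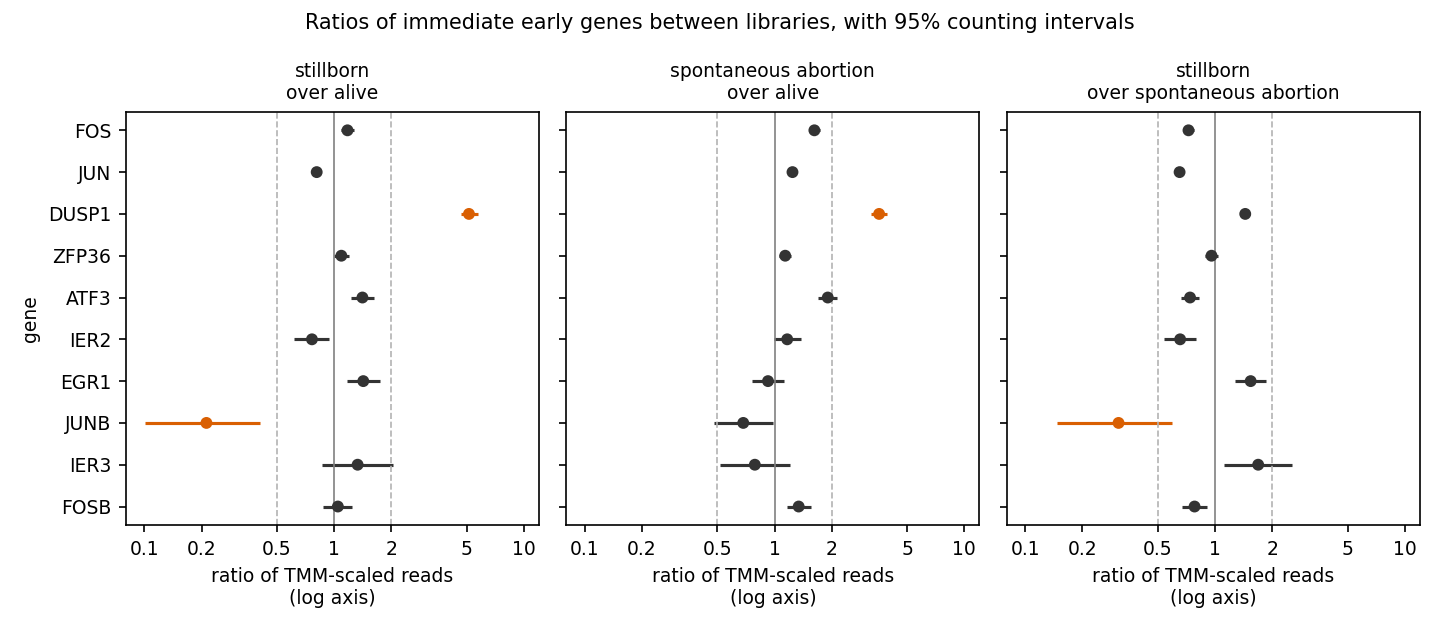
Ratios of TMM-scaled reads (log axis) of the 10 immediate early genes for the 3 pairs of libraries, with exact 95% intervals for counting error as lines, dashed lines at 2-fold and called genes in orange. DUSP1 lies at 5.14 and 3.56 over the alive library, and JUNB lies at 0.212 in the stillborn over the alive library and at 0.310 over the spontaneous abortion library.

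Setting the losses against each other, JUNB was 3.22-fold lower (1.69 to 6.77) in the stillborn library, with 11 against 65 reads. It was the 1 member called, beside 15% of all 13811 genes with enough reads (7.53% higher and 7.49% lower). DUSP1 was 1.44-fold higher (1.36 to 1.53) in the stillborn library. IER3 was 1.69-fold higher (1.11 to 2.56) and EGR1 1.54-fold higher (1.28 to 1.85).

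The AP-1 genes had ratios below 1. JUN was at a ratio of 0.651 (0.622 to 0.681), FOS at 0.725 (0.675 to 0.778) and FOSB at 0.781 (0.667 to 0.911). IER2 and ATF3 were low as well, at 0.655 (0.538 to 0.794) and 0.739 (0.661 to 0.825), and ZFP36 was at 0.959 (0.885 to 1.04). The median log2 ratio of the 10 was -0.39, beside -0.02 over all genes. At 1.5-fold, EGR1 and IER3 were called higher and JUN, JUNB and IER2 lower, beside 32.6% of all genes, and at 4-fold none was called, beside 4.47%.

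Both losses were also set against the alive library in 1 model with limma, on scaled log2(RPKM + 0.1), which leaves 1 residual degree of freedom and assumes that the alive library varies as the losses do. Its spread within the losses is the difference between a stillborn and a spontaneous abortion library, which are different outcomes and not replicates of 1 condition. The model also shares variance between genes along a trend with their mean level. An SE or p below is therefore not a measure of a gene's own spread alone. Both losses are set against the same alive library, so a direction shared by 2 of 2 losses is not 2 independent findings. None of the 10 genes passed an adjusted p of 0.05 (limma, Benjamini-Hochberg over 10229 genes), where 0.156% of all genes did, and 1 of the 10 had an unadjusted p under 0.05, beside 9.07% of all genes. That gene was DUSP1, with a log2 difference of 2.09 (SE 0.37, limma unadjusted p = 0.00038, adjusted p = 0.142), higher in 2 of 2 losses and 25th of all genes by p. ATF3 had a log2 difference of 0.71 (SE 0.36, limma adjusted p = 0.607), and FOS one of 0.46 (SE 0.38, limma adjusted p = 0.742), both higher in 2 of 2 losses. JUNB had one of -1.31 (SE 0.66, limma adjusted p = 0.606), and was lower in 2 of 2.

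The composition of the FOS and JUN families shows what surrounds the members. Over FOS, FOSB, FOSL1, FOSL2, JUN, JUNB and JUND, RPKM summed to 120.0, 188 and 145. FOS took 47.5%, 45.5% and 37.4% of this sum and JUN 36.5%, 38.9% and 41.8%. JUNB took 0.563%, 1.26% and 2.46%. FOSL2, a FOS-related antigen, was at RPKM 10.1, 16.5 and 13.7. JUND, a JUN relative with steady expression in many cells, was at 7.03, 8.55 and 11.3, and its ratio in the stillborn over the alive library was 0.695 (0.632 to 0.764).

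**Figure D3:**
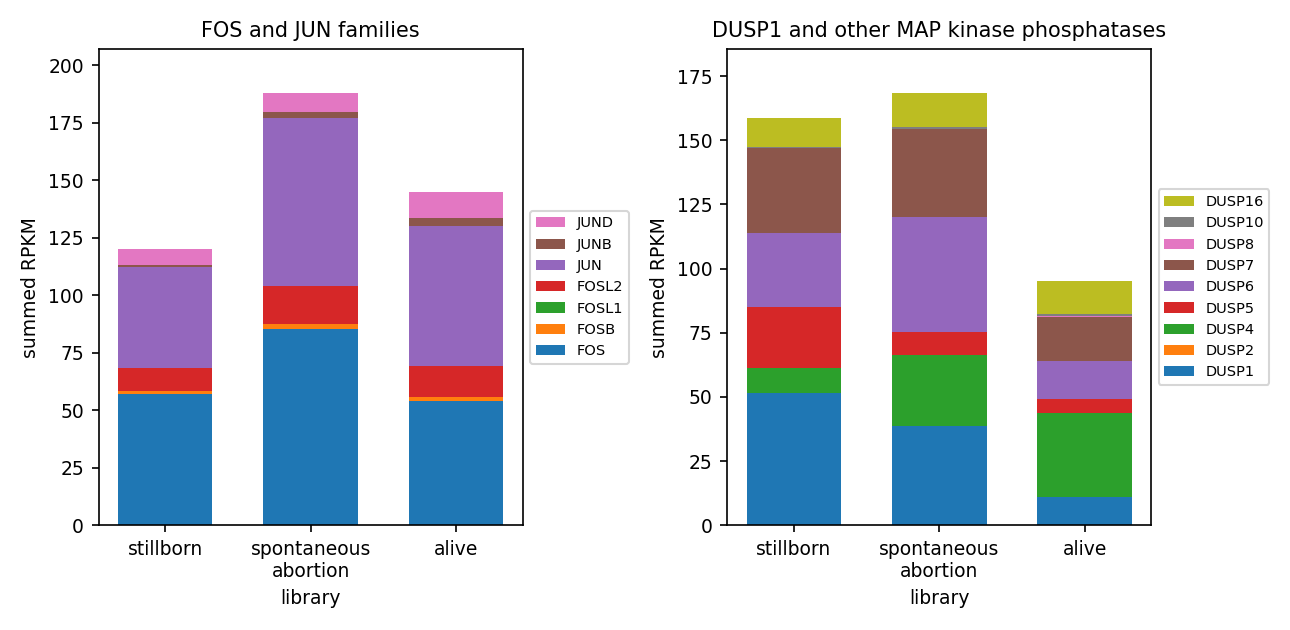
Stacked RPKM of the FOS and JUN families (left) and of DUSP1 with other MAP kinase phosphatases (right) in each of the 3 libraries. The phosphatases sum to 159 and 169 in the losses and to 95.3 in the alive library, with DUSP1 the bottom segment at 51.4, 38.7 and 11.2, while the FOS and JUN families are highest in the spontaneous abortion library, at 188.

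Other phosphatases and inhibitors of MAP kinase signalling formed the list nearest to DUSP1. In the stillborn over the alive library, 4 of 12 with enough reads were called higher and 3 lower, beside 13.1% and 12.5% of all genes. DUSP5, an inducible nuclear ERK phosphatase, had RPKM 23.6 and 5.61 there, or 4.69-fold higher (4.13 to 5.35). SPRY2, a feedback inhibitor of receptor tyrosine kinases, was 4.16-fold higher (2.45 to 7.36), with 62 against 19 reads. DUSP4, another nuclear phosphatase, went the other way, at 9.93 against 32.6, or 2.94-fold lower (2.64 to 3.27).

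The cytoplasmic ERK phosphatases DUSP6 and DUSP7 were 2.20-fold and 2.15-fold higher there, and the scarce DUSP8 and DUSP10 were 2.51-fold and 2.13-fold lower. In the spontaneous abortion over the alive library 3 of the 12 were called higher and 0 lower, beside 7.68% and 5.69% of all genes. DUSP6 was at RPKM 44.6 against 14.8, or 3.10-fold higher (2.90 to 3.32), SPRY2 4.61-fold higher (2.83 to 7.90) and DUSP7 2.06-fold higher (1.87 to 2.27). Between the losses 1 of the 12 was called higher in the stillborn library and 2 lower, beside 7.53% and 7.49% of all genes. DUSP5 was 2.82-fold higher there, DUSP8 3.55-fold lower and DUSP4 2.56-fold lower.

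Summed over DUSP1 and 8 other dual-specificity phosphatases of MAP kinases, RPKM came to 159, 169 and 95.3. DUSP1 held 32.4%, 23.0% and 11.7% of it, and DUSP4 6.25%, 16.4% and 34.2%. In the model of both losses, the median log2 difference over the 9 genes of this list that were tested was 0.15, beside -0.01 over all genes tested.

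Among other immediate early genes, 7 of 30 with enough reads were called higher and 3 lower in the stillborn over the alive library, beside 13.1% and 12.5% of all genes. The most abundant were KLF6, a zinc finger factor, at RPKM 78.6, 91.9 and 58.2, GADD45A, a growth arrest gene, at 46.5, 38.2 and 32.6, and BHLHE40, a basic helix-loop-helix repressor, at 35.4, 42.1 and 32.3. None of these was called in any pair. The matricellular gene CCN2 (listed as CTGF) stood at RPKM 14.9, 7.38 and 3.23 and was 5.16-fold higher in the stillborn (4.31 to 6.21) and 2.35-fold higher in the spontaneous abortion library (1.96 to 2.84), each over the alive one. IER5, a relative of IER2, was at 2.18, 1.38 and 0.553, or 4.41-fold (2.34 to 8.91) and 2.56-fold (1.37 to 5.16) higher, from 13 reads in the alive library.

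EGR2, the relative of EGR1, was scarce, at RPKM 0.401, 0.0511 and 0.0134, with 79, 17 and 3 reads. It was 33.5-fold higher in the stillborn than in the alive library (11.1 to 166). EGR1 made up 89.7%, 97.7% and 99.3% of the EGR family sum, and EGR4 was listed at 0 in every library. The genes called lower in the stillborn library were KLF2, a factor induced by fluid shear, at RPKM 0.643 against 3.03, and the nuclear receptors NR4A1, at 0.108 against 0.348, and NR4A3, at 0.332 against 1.22.

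Besides IER5 and CCN2 no gene of this list was called in the spontaneous abortion over the alive library, beside 13.4% of all genes. Between the losses, 2 of 31 with enough reads were called higher in the stillborn library and 5 lower, beside 7.53% and 7.49% of all genes. EGR2 (8.52-fold) and CCN2 (2.20-fold) were higher there, and NR4A1, NR4A3, KLF2, PLK3 and IER5L were lower, IER5L 3.60-fold and NR4A3 3.05-fold. The list's median log2 ratio over its 26 genes whose mean RPKM reached 1 was 0.29 in the stillborn and 0.38 in the spontaneous abortion over the alive library. In the model of both losses, the list's median log2 difference over the same 26 genes was 0.34, beside -0.01 over all genes tested.

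The kinases that lead to immediate early transcription are read beside the 25.6%, 13.4% and 15% of all genes called in stillborn over alive, spontaneous abortion over alive and stillborn over spontaneous abortion. In the ERK cascade 0 of 13 genes were called higher in any pair and 1 was called lower, RPS6KA2, a ribosomal S6 kinase, 2.35-fold lower in the stillborn than the alive library, with RPKM 1.32 and 3.47. MAPK3, an ERK kinase, was at RPKM 43.4, 43.8 and 48.5. NRAS, a membrane GTPase at the head of the cascade, was at 43.1, 44.2 and 35.4. In the JNK and p38 cascades MAP2K6, which activates p38, was 2.36-fold lower in the stillborn than in the alive library, and MAP2K3, with the same role, was 2.20-fold higher for spontaneous abortion over alive, out of 12 genes with enough reads. MAP2K4, an activator of JNK, was at 26.8, 23.3 and 18.3, MAP3K1 at 8.13, 15.3 and 15.0, and the p38 effector MAPKAPK2 at 9.31, 9.41 and 9.76.

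Of 9 factors that act on immediate early promoters, 2 were called higher in the stillborn over the alive library and 1 in the spontaneous abortion over the alive library, beside 13.1% and 7.68% of all genes, which for so few genes is near the background. ELK4, a partner of SRF, was at RPKM 47.6, 28.9 and 23.1 and 2.30-fold higher in the stillborn library (2.20 to 2.41). ATF1, a relative of CREB, was at 2.79, 2.36 and 1.16, or 2.69-fold and 2.10-fold higher than in the alive library. SRF itself was at 5.73, 7.94 and 9.87, lowest in the stillborn library, and ELK3 was at 41.2, 41.7 and 35.5. Of 9 other bZIP factors with enough reads, 1 was called in each pair, beside 25.6%, 13.4% and 15% of all genes. BATF2 was called lower in the stillborn library against both others, at 0.309 beside 0.929 and 0.708, and JDP2 (listed as LOC103229355), a partner of JUN, was 2.25-fold higher for spontaneous abortion over alive (1.55 to 3.33). ATF2, which pairs with JUN, was at 8.72, 8.81 and 7.57.

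**Figure D4:**
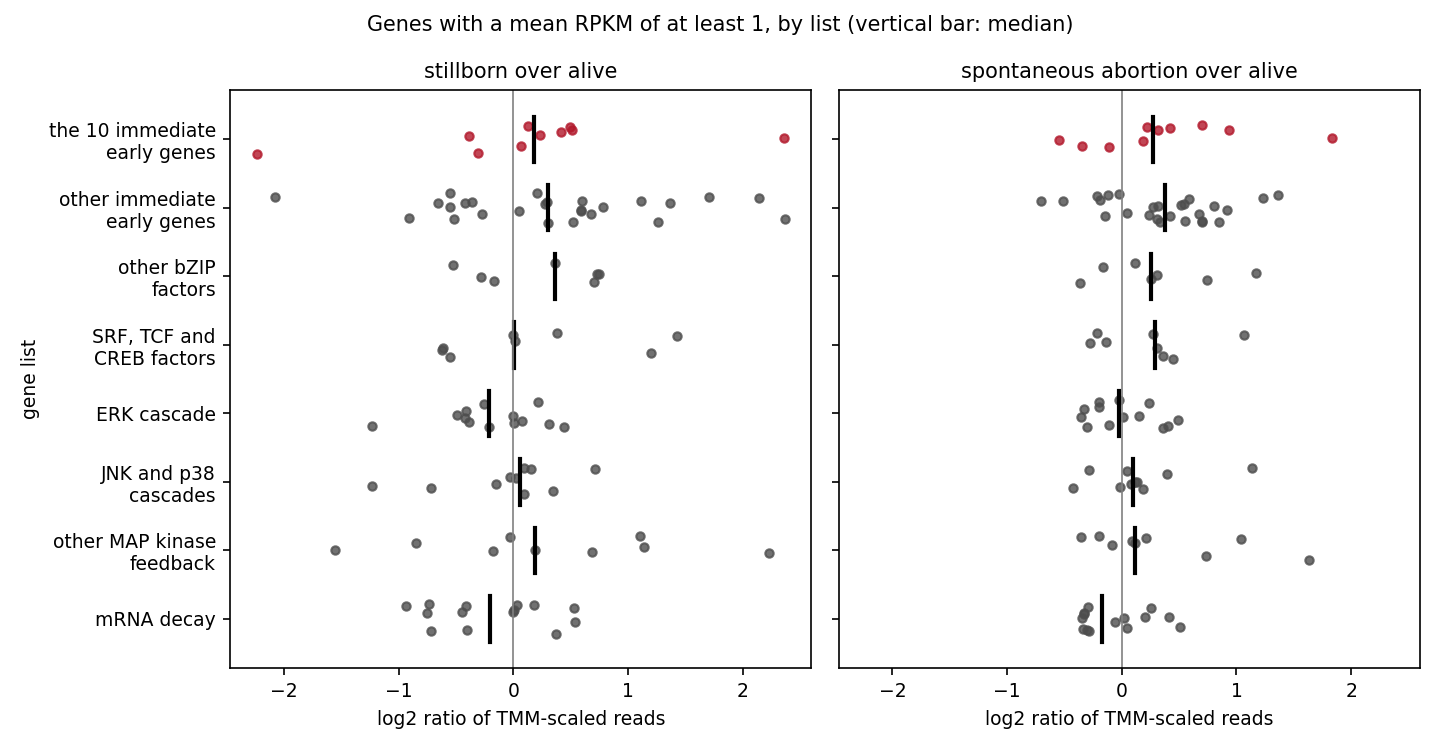
Log2 ratios of TMM-scaled reads for genes whose mean RPKM reached 1, by list, in the stillborn (left) and spontaneous abortion (right) library over the alive library, each point a gene and each vertical bar the list's median. The 10 immediate early genes have their extremes in DUSP1 on the right and JUNB on the left, and the mRNA decay genes stay within 1 log2 unit of 0.

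ZFP36 acts with a decay machinery, of which 0 of 15 genes were called in any pair, beside 25.6%, 13.4% and 15% of all genes. ZFP36L1 and ZFP36L2, its relatives, were more abundant than ZFP36, at RPKM 76.7, 99.2 and 85.6 and at 50.9, 54.2 and 39.2. ZFP36 made up 18.9%, 18.0% and 19.6% of the family sum. CNOT7, a deadenylase of the CCR4-NOT complex, was at 54.8, 42.6 and 42.4. Of the mRNAs that ZFP36 is known to target, 8 of 10 listed were matched, and 2 had enough reads. The cytokine IL6 was at RPKM 4.71, 1.82 and 0.774, called higher in the stillborn over the alive library (6.80-fold, 4.72 to 10.1), in the spontaneous abortion over the alive library (2.42-fold, 1.65 to 3.63) and in the stillborn over the spontaneous abortion library (2.81-fold, 2.23 to 3.56). The growth factor VEGFA was at 0.714, 0.679 and 0.674.

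Markers of cell types also differed between the libraries. More cells releasing a transcript and more of it per cell cannot be told apart in such fluid. The marker counts below are for stillborn over alive unless another pair is named, where 13.1% of all genes were called higher and 12.5% lower.

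The summed levels of the 5 matched neutrophil markers and of the 6 squamous markers ran in the order of DUSP1. An order over only 3 libraries is often shared by unrelated genes, and how many of all genes share it was not counted. The neutrophil sum was RPKM 20.8, 3.68 and 1.45, and S100A8 (7.11, 0.519 and 0) and S100A9 (10.2, 2.81 and 1.10) held most of it. All 3 neutrophil markers with enough reads, S100A8, S100A9 and MMP9 (3.43, 0.327 and 0.337), were called higher. The 2 receptors on the list were scarce. CXCR2 was at 0.0764, 0.0136 and 0.0201, and CSF3R, the receptor of granulocyte colony-stimulating factor, was at 0 in the stillborn and alive libraries. The squamous sum was RPKM 295, 239 and 196, with 3 called higher and 1 lower. The lower one, the basal keratin KRT5, was at 49.1, 151 and 151, against the order of the sum. KRT13 (24.0, 33.7 and 19.5) and KRT4 (18.0, 29.2 and 18.1) did not run in that order either. SPRR3 (131, 4.63 and 2.54), KRT14 (31.7, 9.64 and 3.78) and CRNN (41.3, 11.4 and 1.39) did. Without SPRR3, the squamous sum was lowest in the stillborn library.

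The 6 macrophage markers summed to RPKM 25.4, 6.47 and 8.69, with 3 of 5 called higher and 0 lower. In the spontaneous abortion over the alive library 0 of 3 were called higher and 1 lower, beside 7.68% and 5.69% of all genes. That gene was CD14, a lipopolysaccharide co-receptor, which was 8.48-fold lower, with 9 against 53 reads.

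The summed level of the 6 epithelial markers, RPKM 439, 581 and 721, ran in the order of JUNB, as did KRT19 (316, 434 and 554), which held most of it, KRT8 and KRT18. EPCAM (12.5, 5.69 and 5.97), CDH1 (5.73, 6.82 and 4.22) and CLDN4 (3.69, 3.11 and 3.41) did not run in that order, and EPCAM was called 2.35-fold higher and KRT8 2.33-fold lower. The 6 fibroblast markers summed to 300.4, 329 and 223, with 1 of 5 called higher and 0 lower. The 5 matched erythroid markers summed to 0.216, 2.01 and 0.213, of which HBB (listed as LOC103247901) held 1.82 in the spontaneous abortion library, and the 6 endothelial markers to 1.19, 1.51 and 1.32. The part of these cell types in the ratios of the immediate early genes was not tested.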

How the data were processed

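Cell-free RNA of 3 amniotic fluids was measured, with 1 library per status label. The deposited values are RPKM, 1 per gene and library. Per the submitters' processing notes, bcl2fastq 2.17, STAR and HTSeq were among the tools. How the authors went from reads to RPKM, and with which build, gene models or strand option, was not given in the sources used here. Whether reads of a gene and its antisense partner were counted apart is therefore not known. Totals and whole reads were solved from the RPKM values in Python 3.11.15: within the rounding of the printed digits, 99.7% of the 23276 genes above 0 gave whole reads, adding up to 96.0% to 96.7% of the totals, and 65 genes that did not were left out of ratios. Ratios between libraries were formed over all genes. The main fit of limma 3.58.1 (R 4.3.3) covered the 10229 genes whose mean RPKM reached 1. Where 1 library had 0 reads, 3 reads stood in for it, and no ratio was formed where both libraries had 3 or fewer. The scripts were tested on simulated data. The 10 genes and the gene lists were chosen with earlier results of these data known. Named beside the 10 genes were, per list, the 3 with the highest mean RPKM and up to 3 called genes with the largest ratio per comparison. A result that this rule would name is not reported here. Other genes of a list, most of them called in a pair, were named after their values were seen. Older symbols and gene IDs in the RefSeq table of mChlSab1.0.hap1 matched 6 list genes, and 6 were not matched. Sequences and coordinates were not used here.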

Additional observations from a re-analysis of the deposited data

How the results depend on the processing

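In stillborn against alive, DUSP1 and JUNB were called under all 6 alternatives. These were total assigned reads, median of ratios, 1.5-fold and 4-fold limits, thinning to the smallest total, and no minimum of reads. A gene already called cannot lose its call at 1.5-fold or with no minimum of reads. Those settings could only add calls, so they did not test whether the calls of DUSP1 and JUNB hold, and they added no member. In spontaneous abortion against alive the count of 1 became 3 at 1.5-fold and 0 at 4-fold, and in stillborn against spontaneous abortion the count of 1 became 5 and 0, through the limit alone. The summed RPKM of the 10 genes was 1.14 times the alive level in the stillborn and 1.46 times in the spontaneous abortion library, and 1.04 and 1.52 times as shares of the summed RPKM. The median log2 difference of the 10 in the losses was 0.17, 0.076 on RPKM as deposited, and 0.18 to 0.26 with 1 loss left out, where no residual degree of freedom and so no test remains. On RPKM as deposited the median over all genes tested also fell, from -0.01 to -0.11, and JUN turned to -0.10 and IER3 to -0.062. Leaving out 1 loss gave log2 differences from -0.11 to 0.50 for EGR1, -0.38 to 0.22 for IER2, -0.32 to 0.39 for IER3, -0.30 to 0.31 for JUN, 1.82 to 2.35 for DUSP1 and -2.09 to -0.53 for JUNB. No member was called by limma with a pseudocount of 1, without the filter on mean RPKM or on RPKM as deposited. Over all genes limma called 16, and 0 without the filter. On total assigned reads the share of called genes that were higher in the stillborn than in the spontaneous abortion library moved from 50.1% to 39.9%. No paired analysis was possible because each status has 1 sample. Depth limits JUNB in the stillborn library, with 11 reads, and IER3.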
